A study of Homo sapiens with 24 samples.

Results

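The 10 genes described here encode NF-κB subunits (RELA, RELB, NFKB1 and NFKB2), inhibitors of the IκB family (NFKBIA and NFKBIE), and proteins that restrain or modify signalling upstream of NF-κB (TNFAIP3, TNIP1, BIRC3 and IRAK3). They were taken by name, with no measured value in the rule, and are 10 of the 33127 genes in the count table. Each gene's value is the sum of the reads on its transcripts, 66 transcript rows in all, matched to the gene by transcript identifier.

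RNA-seq was performed in A549, an established human cell line from a lung adenocarcinoma. Cells were exposed to 100 nM dexamethasone (dex), a synthetic glucocorticoid (GC), or to the vehicle ethanol (EtOH, 0.02% of the medium), for 1, 3, 5, 7, 9 or 11 h. The 12 groups held 2 libraries each, called biological replicates in the labels, and all cells grew in serum-containing medium with no added cytokine named. The labels do not say whether replicates were separate cultures, so p-values measure the spread between these libraries.

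NF-κB is a family of dimeric transcription factors held inactive in the cytoplasm by IκB proteins. Cytokine and Toll-like receptors act through adaptor proteins and ubiquitin chains on the IκB kinase (IKK) complex, which marks IκB for destruction and frees the dimer to enter the nucleus. Several genes it activates encode its own inhibitors, which closes a feedback loop, and in airway epithelium it drives chemokine and cytokine genes that GCs are used to restrain.

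Libraries held 6708864 to 13748598 counts, and the biological coefficient of variation ran from 6.48% at 7 h to 12.7% at 11 h. The GC target genes TSC22D3 and PER1 rose at all 6 time points and FKBP5, which encodes a chaperone of the GC receptor (GR), at 5 of them, with a log2 fold change of 3.75 ± 0.12 (SE) for FKBP5 at 5 h and of 0.52 ± 0.14 at 1 h (adjusted p = 0.135). The 4 epithelial markers KRT8, KRT18, EPCAM and CDH1 were all tested, and their summed level, in counts per 1000000 counted reads (CPM), was 3226 to 5241 with EtOH and 3868 to 10473 with dex. Most of that sum was KRT8 and KRT18 (685056 and 732259 counts in all, against 1924 for EPCAM and 9233 for CDH1). KRT8 and KRT18 were each called higher at 5 times and CDH1 at 2, whereas EPCAM was called lower at 3. Of 3 leukocyte markers, CD3E had 0 counts in any library and PTPRC had 10 in all, and the summed level of the 3 with CD14 was at most 3.55 CPM in a dex library and 3.22 in an EtOH library. The 3 endothelial and fibroblast markers in the table summed to 10.8 to 20.4 CPM with EtOH and 5.82 to 23.1 with dex, and COL1A1 among them rose at 3 h and fell at 5, 7 and 9 h. The part of these marker shifts in the results that follow was not tested, and in bulk RNA fewer cells of a type and less RNA per cell cannot be told apart.

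Upstream sequence was examined because members that moved together might share motifs. RefSeq promoters (GRCh38.p14) were present for 8 of the 10 genes, all but NFKBIE and RELB, with 13 start sites between them. The κB consensus, searched on both strands in the 250 bases before each start, was found at 7 of these 13 starts and at 5.21% of 35116 starts genome-wide. The 7 windows belonged to NFKBIA, NFKB1, NFKB2 (at 2 starts), TNFAIP3, TNIP1 and BIRC3, and those of RELA and IRAK3 held no match. The consensus for GR, GNACANNNTGTNC, was found in 0 of the 13 windows and 0.327% of all windows. NFKBIA and BIRC3 rose at every time point, as did TNFAIP3, whose matches are shown further on. The promoters of NFKBIA and BIRC3 are shown here. In NFKBIA (chr14:35404750-35404999, minus strand) and BIRC3 (chr11:102317234-102317449, plus strand) the κB matches are in capitals.
NFKBIA: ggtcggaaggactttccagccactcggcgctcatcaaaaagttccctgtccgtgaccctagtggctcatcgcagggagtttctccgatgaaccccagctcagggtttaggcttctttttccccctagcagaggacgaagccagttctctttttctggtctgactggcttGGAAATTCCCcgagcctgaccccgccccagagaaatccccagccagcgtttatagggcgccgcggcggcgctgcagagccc
BIRC3: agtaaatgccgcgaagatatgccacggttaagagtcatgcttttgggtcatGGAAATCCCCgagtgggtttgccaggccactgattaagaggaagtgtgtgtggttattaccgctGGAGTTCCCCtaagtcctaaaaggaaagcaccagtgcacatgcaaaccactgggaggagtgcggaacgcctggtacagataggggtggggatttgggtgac
Counted from the RefSeq start, the NFKBIA match began 81 bases before it and those of BIRC3 199 and 135 bases before it. The BIRC3 stretch shown stops short of that start, because the annotated exon bases just before it were left out.

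Matches of the same kind are shown for 2 genes that moved in opposite directions, TNFAIP3 and NFKB2, and for NFKB1, which was called at no time point. They lie at chr6:137867182-137867211 and chr6:137867194-137867223 (TNFAIP3, plus strand, overlapping stretches), chr10:102394462-102394490 (NFKB2, plus strand) and chr4:102501300-102501329 (NFKB1, plus strand). Each match precedes a RefSeq start, but those of TNFAIP3 and NFKB2 lie past the annotated gene starts (137867188 and 102394110), inside the gene.
TNFAIP3 upstream match: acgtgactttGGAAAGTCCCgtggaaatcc
TNFAIP3 downstream match: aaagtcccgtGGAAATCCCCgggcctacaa
NFKB2: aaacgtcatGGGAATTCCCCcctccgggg
NFKB1: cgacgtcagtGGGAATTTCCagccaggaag
Genes with a match were thus higher, lower and not called with dex, and a match is a description of the letters, not of binding.

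Each time point was tested by itself with edgeR's quasi-likelihood test (2 libraries per treatment), and p was adjusted by Benjamini-Hochberg over all 19897 genes and transcripts tested. A gene was called at an adjusted p of at most 0.1, and all 10 members passed the filter on low counts. At 1 h, 3 members were called higher and 0 lower, against 0.523% of all rows called higher and 0.342% lower. The count was 5 higher and 2 lower at 3 h, where 7.66% and 5.29% of rows were called in these directions. At 5 h it was again 5 and 2, against 11.2% and 11.9% of rows, and at 7 h 5 and 2, against 13.4% and 12.4%. At 9 h, 5 members were higher and 3 lower, against 9.79% and 8.42%, and at 11 h 5 were higher and 0 lower, against 5.31% and 3.27%. The 5 that rose were inhibitors or regulators of signalling. The 3 that fell were the subunit genes NFKB2 and RELB and the inhibitor gene NFKBIE. The subunit genes RELA and NFKB1 were called at no time. The median log2 fold change of the members ran from 0.09 at 1 h to 0.49 at 7 h, while that of all rows stayed between -0.01 and 0.01.

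**Figure D1:**
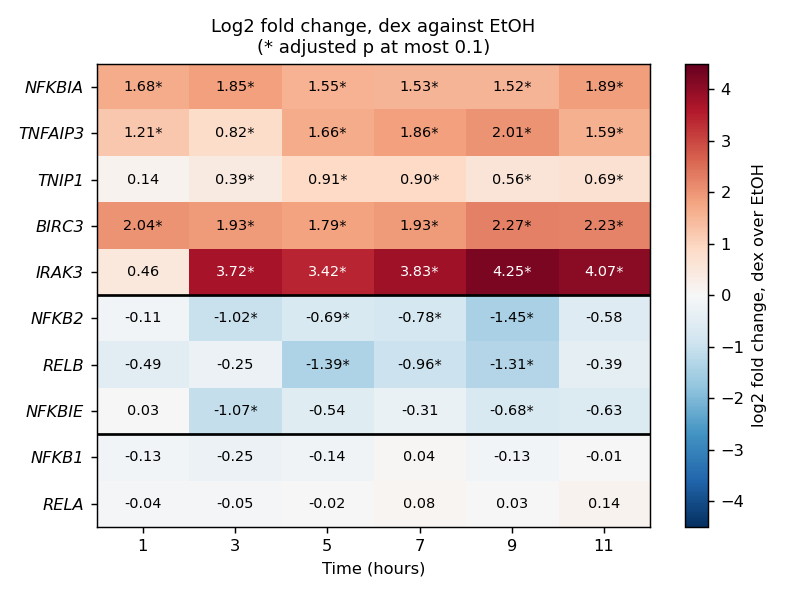
Log2 fold change of dex over EtOH for the 10 members (rows) at each time in hours (columns), red for higher and blue for lower, with an asterisk where the adjusted p was at most 0.1. IRAK3 reaches 4.25 at 9 h, NFKBIA, TNFAIP3 and BIRC3 carry an asterisk at all 6 times, and NFKB1 and RELA at none.

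NFKBIA (ENSG00000100906.10, GRCh38 chr14:35401511-35404749, minus strand) encodes IκBα, the inhibitor that retains NF-κB dimers in the cytoplasm. At 1 h it measured 68.7 and 78.5 normalized CPM in the EtOH libraries and 232 and 236 in the dex libraries. At 3 h the values were 63.9 and 67.1 with EtOH and 239 and 236 with dex, and at 11 h 60.3 and 65.1 with EtOH and 241 and 225 with dex. All 12 dex libraries (193 to 241 CPM) lay above all 12 EtOH libraries (60.3 to 81.0 CPM), so the groups did not overlap at any time. The log2 fold change was 1.68 ± 0.12 at 1 h (SE, n = 2 per group, edgeR adjusted p = 1.37e-08) and then stayed between 1.52 at 9 h and 1.89 at 11 h. It was one of the 104 rows called higher at the first time point. The test of the dex effect over time gave NFKBIA an edgeR adjusted p of 0.134, which passed the threshold without dex replicate 2 at 11 h (0.0873) or EtOH replicate 1 at 9 h (0.0920).

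BIRC3 (ENSG00000023445.13, chr11:102317450-102339403, plus strand) encodes cIAP2, a ubiquitin ligase of the tumour necrosis factor (TNF) receptor complex that also limits non-canonical NF-κB signalling. It measured 38.2 and 39.0 CPM with EtOH at 1 h and 174 and 140 with dex. At 9 h it measured 39.6 and 31.5 with EtOH and 181 and 161 with dex. Every dex library (140 to 200 CPM) exceeded every EtOH library (31.5 to 51.5 CPM). The log2 fold change was 2.04 ± 0.13 at 1 h (edgeR adjusted p = 4.22e-09), 1.79 ± 0.11 at 5 h and 2.27 ± 0.13 at 9 h, the lowest and highest of the 6 being those at 5 and 9 h. The test over time gave an adjusted p of 0.339 for it (edgeR).

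TNFAIP3 (ENSG00000118503.14, chr6:137867188-137883312, plus strand) encodes A20, a ubiquitin-editing enzyme that shuts off signalling to IKK. It was expressed at a low level, with 3.48 to 5.64 CPM over the EtOH libraries and 7.96 to 20.5 over the dex libraries, which did not overlap. At 1 h, EtOH libraries measured 5.48 and 4.18 CPM and dex libraries 11.9 and 10.0. At 3 h they measured 3.77 and 5.64 against 7.96 and 8.91, and at 7 h 5.34 and 4.41 against 15.5 and 20.5. The mean of the 2 dex libraries was lowest at 3 h and highest at 7 h. Single libraries overlapped, with 8.77 CPM in a dex library at 11 h and 17.5 in 1 at 9 h, and this order was not tested. The log2 fold change was 1.21 ± 0.22 at 1 h (edgeR adjusted p = 0.00644), 0.82 ± 0.22 at 3 h (0.0141) and 2.01 ± 0.22 at 9 h (8.76e-06). DESeq2 did not call TNFAIP3 at 3 h (adjusted p = 0.171). Without EtOH replicate 2 the 1 h call was lost (edgeR adjusted p = 0.265), and without EtOH replicate 1 the 3 h call was (0.232). The dex effect differed between times at an edgeR adjusted p of 0.0972, which DESeq2 did not call (0.115). An antisense transcript, AL357060.1, overlaps the gene and holds 91 counts over the 24 libraries, against 2080 for TNFAIP3.

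TNIP1 (ENSG00000145901.15, chr5:151029945-151093577, minus strand) encodes ABIN1, a ubiquitin-binding partner of A20. At 1 h the EtOH libraries measured 26.9 and 32.5 CPM and the dex libraries 24.9 and 41.5, so they overlapped, and the log2 fold change was 0.14 ± 0.19 (edgeR adjusted p = 0.973; without dex replicate 1 it was 0.49, 0.0838). At 5 h they measured 30.6 and 29.998 against 59.4 and 54.7, and at 7 h 26.2 and 28.0 against 50.3 and 51.3. The dex libraries stood apart from the EtOH libraries at both times, with log2 fold changes of 0.91 ± 0.12 (edgeR adjusted p = 9.06e-08) and 0.90 ± 0.11 (2.49e-08). At 11 h the dex libraries were far from each other, 37.9 and 58.9 CPM, above 31.5 and 28.3 with EtOH (log2 fold change 0.69 ± 0.20, edgeR adjusted p = 0.059). The weakest call was at 3 h, 27.9 and 27.9 CPM with EtOH against 42.4 and 31.5 with dex. There the log2 fold change was 0.39 ± 0.14 (edgeR adjusted p = 0.0706). It was 0.17 without dex replicate 1, 0.40 without EtOH replicate 1 and 0.38 without EtOH replicate 2, and the call was lost in each case. DESeq2 (adjusted p = 0.303) and one fit over 24 libraries (edgeR adjusted p = 0.268) did not call it either. The test of the dex effect over time did not call TNIP1 (edgeR adjusted p = 0.253), but did without a low-count filter (0.00644) or without dex replicate 2 at 1 h (0.0205) or either dex library at 11 h (up to 0.0594). The calls at 9 and 11 h were also lost without 1 library, at 9 h either dex library (edgeR adjusted p up to 0.196) and at 11 h either EtOH library (up to 0.414). In the most counted TNIP1 transcript taken alone, the calls at 3 h (edgeR adjusted p = 0.525) and 11 h (log2 fold change 0.37, 0.675) were lost.

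IRAK3 (ENSG00000090376.10, chr12:66188879-66254622, plus strand) encodes IRAK-M, a member of the interleukin-1 receptor-associated kinase family that dampens signalling from Toll-like and interleukin-1 receptors. EtOH libraries held 2 to 11 reads each and 64 in total, while dex libraries held 762. At 1 h the counts were 11 and 2 with EtOH and 8 and 4 with dex, which overlapped. At 3 h they were 3 and 4 against 29 and 63, and at 9 h 6 and 3 against 57 and 111. From 3 h on every dex library exceeded every EtOH library. The ratio of summed counts, scaled by library totals, was 1.36 at 1 h (exact 95% interval 0.567 to 3.23, counting error only), 13.6 at 3 h (6.33 to 34.7) and 18.5 at 9 h (9.53 to 41.2). The log2 fold change was 0.46 ± 0.73 at 1 h (edgeR adjusted p = 0.981), 3.72 ± 0.47 at 3 h (4.71e-07) and 4.25 ± 0.36 at 9 h (5.68e-07). The dex effect differed between times (edgeR adjusted p = 0.0383), but not without EtOH replicate 1 at 1 h (0.795), the library with 11 reads. The 1 h interval held a 2-fold rise. It allows for counting error only, whereas replicates of a group differed by more than that. The interval therefore cannot bound the rise at 1 h, where the EtOH libraries held 11 and 2 reads. An antisense transcript, AC078889.1, that overlaps the gene had 16 counts in all.

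**Figure D2:**
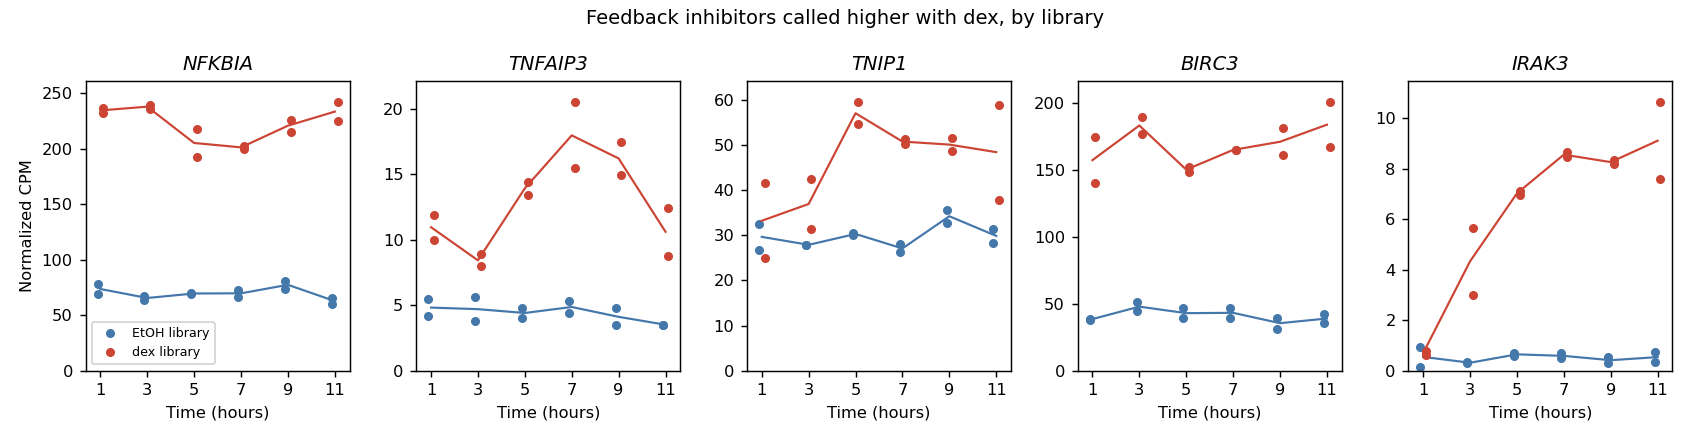
Normalized CPM (linear axes from 0) against time in hours for the 5 genes called higher, with a point for each library (blue EtOH, red dex) and lines through the means of 2. NFKBIA and BIRC3 are separated from 1 h on, whereas IRAK3 starts at 0.144 to 0.956 CPM with both treatments at 1 h and reaches 10.6 with dex at 11 h.

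No subunit gene was called higher at any time. NFKB2 (ENSG00000077150.18, chr10:102394110-102402529, plus strand) encodes p100, the precursor of the p52 subunit of the non-canonical pathway. At 1 h its libraries overlapped, with 24.6 and 26.4 CPM with EtOH and 22.4 and 25.0 with dex. At 3 h they measured 22.5 and 18.99 against 10.3 and 10.3, and at 9 h 27.1 and 30.5 against 10.1 and 10.7. Dex libraries were below EtOH libraries at 5 of 6 times, all but 1 h. The log2 fold change was -0.11 ± 0.15 at 1 h (edgeR adjusted p = 0.977), -1.02 ± 0.16 at 3 h (2.24e-05), -1.45 ± 0.16 at 9 h (1.02e-05) and -0.58 ± 0.23 at 11 h (0.209). The call at 5 h (-0.69 ± 0.19, edgeR adjusted p = 0.00668) was lost without dex replicate 1 (-0.36, 0.241) and in the most counted transcript taken alone (0.149). At 11 h the gene was called in one fit over all libraries (0.0705) and without dex replicate 2 (4.74e-04).

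The dex effect on NFKB2 differed between time points (edgeR adjusted p = 0.0181), and 3 of the 10 members, NFKB2, IRAK3 and TNFAIP3, passed this test, against 13.8% of all rows. NFKB2 was also the 1 member whose EtOH level moved with time (edgeR adjusted p = 0.0427), against 3.33% of rows. Its EtOH means were 25.5 ± 1.29 CPM at 1 h, 28.8 ± 2.40 at 9 h and 16.5 ± 3.27 at 11 h (SD, n = 2), while from 3 h on its dex means lay between 10.3 and 12.4. The test over time in EtOH lost the call without replicate 1 at 7 h (edgeR adjusted p = 0.125) or without replicate 2 at 11 h (0.162).

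RELB (ENSG00000104856.13, chr19:45001430-45038198, plus strand) encodes the subunit that pairs with p52. It held only 9 to 52 reads per library. At 5 h it measured 3.4937 and 3.4998 CPM with EtOH and 0.983 and 1.68 with dex, and at 9 h 3.39 and 5.27 against 1.44 and 1.88. The dex libraries were below the EtOH libraries at all times but 3 h, when they measured 2.59 and 2.34 and the lower EtOH library 2.35 (EtOH mean 2.87 ± 0.745, SD, n = 2). It fell at 5 h (log2 fold change -1.39 ± 0.36, edgeR adjusted p = 0.00301), 7 h (-0.96 ± 0.31, 0.0209) and 9 h (-1.31 ± 0.33, 0.0147). DESeq2 did not call it at 7 h (adjusted p = 0.248), and leaving out dex replicate 1 or EtOH replicate 1 at 7 h (up to 0.254) or either dex library at 9 h (up to 0.148) ended those calls. The most counted RELB transcript taken alone was not called at 5, 7 or 9 h (edgeR adjusted p up to 0.611).

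NFKBIE (ENSG00000146232.16, chr6:44258166-44265788, minus strand) encodes IκBε, another cytoplasmic inhibitor. Unlike NFKBIA it was called in the lower direction, at 3 h and 9 h. At 3 h it measured 6.32 and 6.39 CPM with EtOH and 3.31 and 2.79 with dex, a log2 fold change of -1.07 ± 0.25 (edgeR adjusted p = 0.00336). At 9 h the values were 6.69 and 7.09 against 3.30 and 4.88 (-0.68 ± 0.25, 0.0859), a call lost under DESeq2 (0.315) and without either dex library (up to 0.530). Its dex and EtOH libraries overlapped only at 1 h, 4.63 and 7.27 CPM with dex against 5.04 and 6.26 with EtOH. Even so, NFKBIE was not called at 5 h (log2 fold change -0.54 ± 0.26, edgeR adjusted p = 0.155) or 7 h (-0.31 ± 0.23, 0.393). At 11 h its log2 fold change was -0.63 ± 0.31 (edgeR adjusted p = 0.346), and without dex replicate 2 it was -0.97 (0.0256).

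RELA and NFKB1 encode the subunits of the canonical dimer, p65 and the precursor of p50, and neither was called at any time. RELA (ENSG00000173039.18, chr11:65653596-65663094, minus strand) measured 64.4 to 76.9 CPM over the EtOH libraries (median 70.3) and 63.8 to 76.8 over the dex libraries (median 72.3). Its log2 fold changes ran from -0.05 ± 0.11 at 3 h to 0.14 ± 0.14 at 11 h (edgeR adjusted p = 0.842 and 0.714). NFKB1 (ENSG00000109320.11, chr4:102501329-102617302, plus strand) measured 34.1 to 51.7 CPM with EtOH (median 40.3) and 35.2 to 45.0 with dex (median 38.4). Its log2 fold changes ran from -0.25 ± 0.14 at 3 h to 0.04 ± 0.10 at 7 h (edgeR adjusted p = 0.311 and 0.825). Leaving out EtOH replicate 2 at 3 h, where EtOH libraries measured 51.7 and 38.2 CPM, gave NFKB1 a call in the lower direction (-0.46, edgeR adjusted p = 0.0393), and so did leaving out EtOH replicate 1 at 9 h (-0.33, 0.0596).

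**Figure D3:**
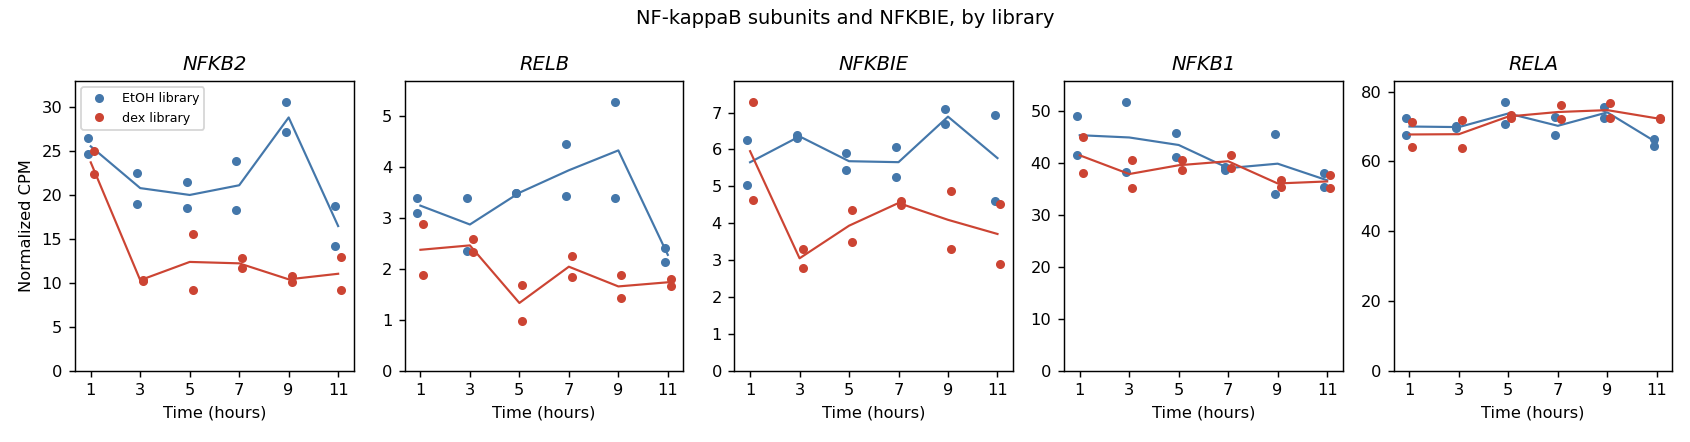
Normalized CPM (linear axes from 0) against time in hours for NFKB2, RELB, NFKBIE, NFKB1 and RELA, with a point for each library (blue EtOH, red dex) and lines through the means of 2. NFKB2 falls to 10.3 CPM with dex at 3 h and its EtOH libraries peak at 9 h, while the treatments overlap for RELA and NFKB1 at 5 of 6 times.

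Levels can be compared between genes only per length. On a scale of counts per transcript length, summed over transcripts and scaled to the same total in every library, NFKBIA had the highest median among members in EtOH, 103.9, followed by RELA at 83.8, TNIP1 at 26.8, NFKB1 at 23.7, BIRC3 at 16.4, NFKB2 at 15.4, NFKBIE at 8.71, RELB at 3.36, TNFAIP3 at 2.61 and IRAK3 at 0.172. The ranges over the 12 EtOH libraries were apart for NFKBIA and RELA, RELA and TNIP1, NFKBIE and RELB, and TNFAIP3 and IRAK3. The ranges of the other neighbours overlapped. The order of NFKB1 and BIRC3 and that of NFKB2 and NFKBIE still held in 12 of 12 libraries. That of TNIP1 and NFKB1 held in 10 of 12, and those of BIRC3 and NFKB2 and of RELB and TNFAIP3 in 8 of 12. With dex the per-length medians were 331 for NFKBIA, 68.4 for BIRC3, 7.61 for TNFAIP3 and 2.30 for IRAK3. How reads that fit several transcripts were placed is not given in the sources used here, so these levels are approximate.

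**Figure D4:**
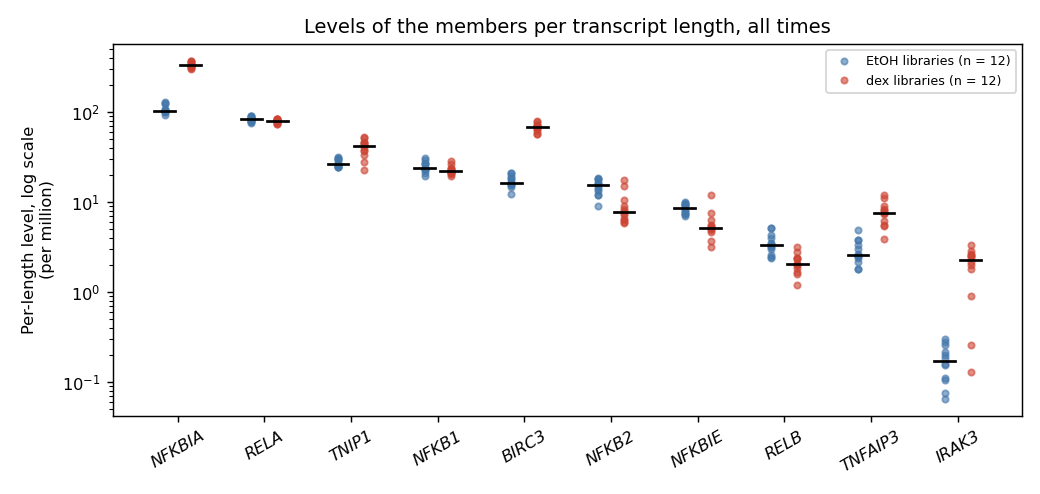
Per-length level (log axis, scaled to the same total in every library) of the 10 members, with a point for each of 12 EtOH (blue) and 12 dex (red) libraries at all times and a bar at the median. Members are ordered by their EtOH median, from 103.9 for NFKBIA to 0.172 for IRAK3, and BIRC3 moves from 16.4 to 68.4 with dex.

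Over the 24 libraries, the genes whose log2 CPM followed NFKBIA most closely among 10645 genes were RGS2 (Pearson r = 0.989), ZFP36 (0.987), TSC22D3 (0.984), PER1 (0.982) and KLF6 (0.978). Among members, r with NFKBIA was 0.975 for BIRC3, rank 7 of 10644, 0.892 for TNFAIP3, rank 68, and 0.706 for TNIP1, and it was -0.668 for NFKB2 and -0.675 for NFKBIE. All these genes share the contrast of dex and EtOH libraries. Within the 12 EtOH libraries r ran from -0.31 for KLF6 to 0.64 for TSC22D3 over these 5 genes, and within the 12 dex libraries from -0.09 for TSC22D3 to 0.85 for RGS2.

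The rest of the pathway was counted from lists of known components. These lists leave out the members, although NF-κB activates genes for its own inhibitors. Of the members, NFKBIA, BIRC3 and TNFAIP3 rose at all 6 times and TNIP1 and IRAK3 at 5. NFKB2, RELB and NFKBIE fell at 4, 3 and 2 times, and RELA and NFKB1 were not called. Of 17 NF-κB target genes, 9 had enough counts to be tested, and IL6, ICAM1, VCAM1, TNF, CSF2, IL1A, IL1B and CCL20 did not. Of the 9, 4 fell and 0 rose at 1 h, 5 fell and 1 rose at 3 h, 5 fell and 3 rose at 5 h, 5 fell and 2 rose at 7 h, 4 fell and 2 rose at 9 h, and 5 fell and 1 rose at 11 h. Among all rows, the shares called lower and higher were 0.342% and 0.523% at 1 h, 5.29% and 7.66% at 3 h, 11.9% and 11.2% at 5 h, 12.4% and 13.4% at 7 h, 8.42% and 9.79% at 9 h, and 3.27% and 5.31% at 11 h. The median log2 fold change of the list lay between -1.56 at 3 h and -0.51 at 9 h. The genes that fell encode neutrophil and monocyte chemokines (CXCL1, CXCL8 and CCL2), the prostaglandin synthase PTGS2 and the survival factor BCL2A1, whereas CFLAR, an inhibitor of caspase activation, and SOD2, a mitochondrial superoxide dismutase, were higher at consecutive times. CXCL2, a neutrophil chemokine like CXCL1, went the other way, with 1.03 and 2.58 CPM with EtOH and 4.59 and 4.48 with dex at 5 h (log2 fold change 1.27 ± 0.33, edgeR adjusted p = 0.00341), and was also higher at 9 h.

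CCL2 measured 17.4 and 19.5 CPM with EtOH at 3 h and 4.86 and 5.31 with dex (log2 fold change -1.87 ± 0.18, edgeR adjusted p = 2.22e-09). PTGS2 measured 60.9 and 65.7 CPM at 5 h with EtOH and 16.1 and 12.997 with dex (-2.13 ± 0.14, edgeR adjusted p = 3.82e-17). CXCL1 fell from 5.55 and 5.9996 CPM to 2.18 and 2.24 at 5 h (-1.39 ± 0.29, edgeR adjusted p = 2.13e-04). CXCL8 fell from 2.57 and 3.67 CPM to 1.202 and 0.784 (-1.66 ± 0.39, edgeR adjusted p = 0.00121). In each of the 4, the dex libraries lay below the EtOH libraries at the time given. These genes were picked by their calls and mean log2 fold change, so the separation is no further evidence. CXCL1, CCL2 and PTGS2 fell at all 6 times and CXCL8 at 5, all but 9 h.

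**Figure D5:**
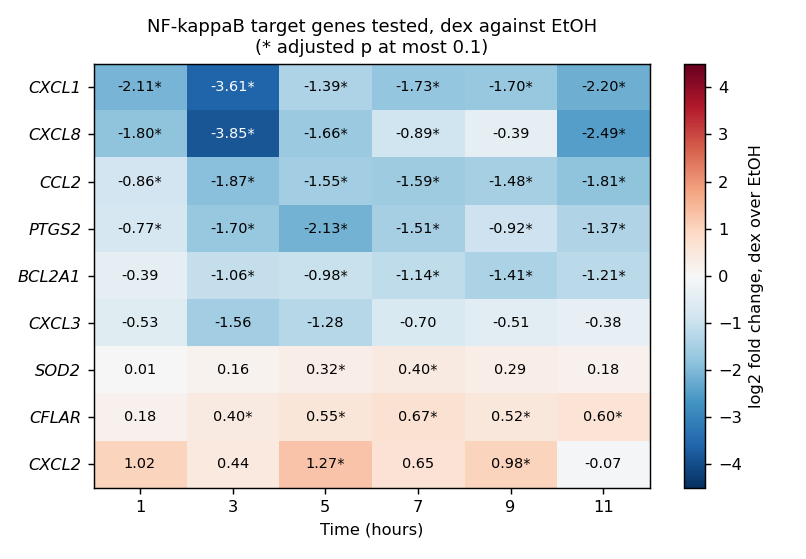
Log2 fold change of dex over EtOH for the 9 NF-κB target genes tested (rows) at each time in hours (columns), red for higher and blue for lower, with an asterisk where the adjusted p was at most 0.1. CCL2 and PTGS2 are lower at all 6 times, with -1.87 for CCL2 at 3 h and -2.13 for PTGS2 at 5 h, while CFLAR is higher from 3 h on.

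Of 5 other genes for subunits and IκB proteins, 2 were called higher and 1 lower at 5 h, against 11.2% and 11.9% of all rows. At 7 h 1 was higher and 2 lower, against 13.4% and 12.4%. At 1 h 1 was lower and at 3 h 1, against 0.342% and 5.29%. At 9 h 1 was higher, against 9.79%, and at 11 h 0 were called, against 8.58% in both directions together. NFKBID, which encodes a nuclear IκB protein, fell at 5 and 7 h (log2 fold change -1.21 ± 0.39 at 7 h, edgeR adjusted p = 0.0211). BCL3, a nuclear IκB protein that binds p50 and p52 dimers, was lower at 1 h (-0.62 ± 0.15, edgeR adjusted p = 0.0631) and higher at 5 h (0.83 ± 0.14, 1.18e-05) and 7 h. REL, the subunit c-Rel, fell at 3 h (-0.44 ± 0.13, edgeR adjusted p = 0.0290) and 7 h (-0.31 ± 0.11, 0.0369), and NFKBIZ, another nuclear IκB protein, rose at 5 h (0.42 ± 0.15, 0.0400) and 9 h (0.50 ± 0.16, 0.0486). Among 9 genes of the IKK complex and the kinases upstream of it, 1 was called higher and 1 lower at 7 h and likewise at 9 h. Of all rows, 25.8% were called at 7 h and 18.2% at 9 h, both directions together. At 3 and 11 h 1 was lower, against 5.29% and 3.27% of rows, and at 1 and 5 h 0 were called, against 0.864% and 23.1% in both directions. MAP3K14, which encodes the NF-κB-inducing kinase NIK that drives p100 processing, measured 19.4 and 19.4 CPM with EtOH at 3 h and 9.10 and 10.6 with dex (-0.98 ± 0.16, edgeR adjusted p = 4.09e-05), and it fell at 3 time points. TAB2, an adaptor of the kinase TAK1, rose at 7 and 9 h (0.39 ± 0.12 at 9 h, edgeR adjusted p = 0.0494).

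Of 17 receptors and adaptors tested, 6 were called at consecutive times, 4 higher and 2 lower by their mean over times, against 9.66% and 8.65% of all rows. LTBR, the lymphotoxin β receptor, rose at 4 times (log2 fold change 0.78 ± 0.11 at 7 h, edgeR adjusted p = 5.09e-07), and the interleukin-1 receptor IL1R1 at 3 (0.71 ± 0.11 at 5 h, 3.55e-06). TRAF3, an adaptor that promotes degradation of NIK, fell at 4 times (-0.62 ± 0.12 at 9 h, edgeR adjusted p = 0.00235) and TRAF5 at 2 (-0.92 ± 0.14 at 7 h, 2.07e-06). Of 9 genes of the ubiquitin machinery, at most 2 were called at any time, 1 higher and 1 lower at 7 h and 2 higher at 9 h. Of all rows, 25.8% were called at 7 h and 18.2% at 9 h, both directions together. The ubiquitin ligase gene ITCH rose at 2 consecutive times (0.36 ± 0.11 at 9 h, edgeR adjusted p = 0.0429). The median log2 fold change of the receptors stayed between -0.13 and 0.06, and that of the ubiquitin list between 0.01 and 0.17.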

How the data were processed

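Poly-A RNA libraries were described by the authors as stranded and sequenced with single-end reads of 50 bases. Per the paper's methods, the authors mapped reads to GENCODE v.19 transcripts with Bowtie v.0.12.9 and tallied them with samtools idxstats v.1.3.1, and the labels' processing notes name hg19. The deposited values are raw counts per transcript, with no normalization. The placement of reads that fit several transcripts and the use of strand in counting are not given in the sources used here. The methods state triplicates, whereas the labels analysed here give 2 replicates. The treatment text gives 1 h throughout, and times were taken from titles and durations.

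Counts of 119207 transcripts were summed per gene through GENCODE release 29 (GRCh38) by identifier without version. This assigned 110262 transcripts and 94.1% of counts, and the other 8945 stayed as single rows. The median library held 10109393.5 counts. With edgeR 4.0.16 (R 4.3.3), TMM normalization, filterByExpr over the 12 groups and the robust quasi-likelihood F-test were applied at each time point separately, and SE is the log2 fold change over the square root of F. The dex effect over time (24 libraries) and time in EtOH (12 libraries) were tested jointly in edgeR. The scripts were first tested on simulated data with known changes.

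The members and lists, and the alternatives, were chosen with earlier results of these data known. Named genes are the members, up to 4 per list called at 2 or more consecutive times by mean log2 fold change, 3 GC targets, and the 5 genes most correlated with NFKBIA (log2 CPM, prior count 2, median of at least 50 counts). BCL2A1, CFLAR, SOD2, CXCL2, REL and NFKBIZ were named after their values were seen. Alternatives were DESeq2 1.42.0, its size factors, no filter, at least 10 counts in every library (which drops IRAK3 and RELB), a single fit to all 24 libraries, blocking on replicate number, the stricter threshold of 0.05, the most counted transcript, and leaving out each library. The correlation of same-numbered deviations ran from -0.202 at 3 h to 0.343 at 1 h. Replicates of a group differed by more than counting error in every group. The ChIP-seq, simulated and microbial data of the paper were not used here. One leukocyte marker is not reported here.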

Additional observations from a re-analysis of the deposited data

Results flagged for a closer look

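For 3 members the difference between dex and EtOH was not the same at all times by the test of the treatment-by-time terms in edgeR over 24 libraries, which was passed by NFKB2 (adjusted p = 0.0181), IRAK3 (0.0383) and TNFAIP3 (0.0972). NFKB2 had a log2 fold change of -0.11 at 1 h, -1.45 at 9 h and -0.58 at 11 h, and its EtOH level also moved with time. IRAK3 went from 0.46 at 1 h to 3.72 at 3 h, on EtOH libraries with 2 to 11 reads each. TNFAIP3 went from 1.21 at 1 h to 0.82 at 3 h and 2.01 at 9 h. The result for IRAK3 depended on EtOH replicate 1 at 1 h, the library with 11 reads. That for TNFAIP3 was not called by DESeq2 (adjusted p = 0.115) and was lost without most single libraries.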

How the results depend on the processing

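No member call was reversed under the alternatives run, and the signs that changed were of uncalled values, such as TNIP1 at 1 h (-0.25 without dex replicate 2) and IRAK3 at 1 h (-0.41 without EtOH replicate 2). The calls of NFKBIA and BIRC3 at each time were kept under all of them. Over the alternatives that keep every library and test all members, a member call was lost in 18 cases and gained in 4. A case is a result under an alternative, so a call lost under several alternatives, such as that of TNIP1 at 3 h, was counted each time. The filter of at least 10 counts leaves IRAK3 and RELB, and so their calls, untested. TNFAIP3 lost the test over time under DESeq2 (adjusted p = 0.115), with the replicate block (0.100355) and without most single libraries (up to 0.347). DESeq2 called 1324 genes at 3 h (main count 2576), 2660 at 5 h (4606), 2727 at 7 h (5132) and 2032 at 9 h (3624). Without a filter, 307 genes were called at 1 h (172) and 2120 over time in EtOH (662), where 2 members were called (1), and the threshold of 0.05 left 230. One fit over 24 libraries called 2971 at 11 h (1707). The replicate number did not pair the libraries in the same way at all times. The correlation of same-numbered deviations was 0.343 at 1 h, 0.195 at 9 h, -0.202 at 3 h and between 0.0157 and 0.0413 at 5, 7 and 11 h. With the replicate block, 634 genes were called at 1 h (172) and 5224 at 9 h (3624). TNIP1 lost its 3 h call with it (edgeR adjusted p = 0.111), and counts of members stayed within 1 of the main count. The crossed pairing at 3 h, added after seeing the data, gave 4181 genes and 8 members (7).

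Leaving out 1 library, with the lone sample assumed to vary like the others, gave 94 to 762 genes at 1 h, 1542 to 3010 at 3 h, 3530 to 3973 at 5 h, 2660 to 5898 at 7 h, 1298 to 6105 at 9 h, 856 to 5870 at 11 h, 1885 to 4595 for the dex effect over time and 23 to 2249 over time in EtOH. Members called ranged from 2 to 4, 5 to 7, 6 to 7, 6 to 7, 5 to 9 and 4 to 7 at the 6 times, 1 to 5 for the dex effect over time and 0 to 2 over time in EtOH. Extremes came without EtOH replicate 2 and dex replicate 2 at 1 h (94 and 762), dex replicate 2 and EtOH replicate 1 at 9 h (1298 and 6105), EtOH replicate 1 and dex replicate 1 at 11 h (856 and 5870), and, over time in EtOH, replicate 1 at 7 h and replicate 1 at 9 h (23 and 2249). The cause was not tested. Depth limits the members with few reads, such as IRAK3 with EtOH (2 to 11 per library) and RELB (9 to 52).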

Other observations

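The share of each member's counts on single transcripts was also compared. The main NFKBIA transcript, NFKBIA-201, held 28.7% of the gene's counts with EtOH and 28.1% with dex. For NFKBIE the leading transcript, NFKBIE-201, held 70.7% and 71.3%. RELB had the largest difference in share among the member transcripts compared, with RELB-202 at 46.4% with EtOH and 33.5% with dex and RELB-201 at 42.5% and 50.9%, on 431 and 224 counts in all. The placement of reads that fit several transcripts is not given in the sources used here, so the shares are uncertain, and they were not tested.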
